A study of Mus musculus with 4 samples.

Results

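N6-methyladenosine (m6A), a methyl mark on adenosines of messenger RNA, was examined in the transcripts of mouse genes for RING and TRIM ubiquitin ligases. Members were all genes whose symbol is Rnf or Trim followed by a number and that had at least 1 listed site in any of the 4 libraries, with 2 symbols left out by the selection rule. This gave 104 genes, 67 Rnf and 37 Trim, of 20001 genes with a listed site, and 6447 of the 833043 listed positions in genes. In 83 members sites were listed in all 4 libraries, in 8 members in 3, in 5 members in 2 and in 8 members in 1.

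Ubiquitin ligases choose which proteins are tagged with ubiquitin. A RING domain holds the ubiquitin-conjugating enzyme beside the substrate, so that ubiquitin passes directly between them, and RBR ligases use a RING together with a catalytic cysteine. TRIM proteins carry a RING, B-box zinc fingers and a coiled coil, followed by a variable end that binds the substrate. The Rnf symbol was given to proteins because they have a RING finger, so these genes act in places as different as chromatin, the endoplasmic reticulum, the cytoskeleton and antiviral sensing. In mRNA, m6A is laid down by a complex whose catalytic subunit is METTL3, mostly in long internal exons and near stop codons, and it is often linked to shorter mRNA lifetime.

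All libraries came from day 6 retinal organoids of the Rx:GFP line, grown with AGN, with an FKBP12F36V-HA degron on the C-terminus of endogenous Mettl3 according to the series design. The genotype text of the 4 samples names Mettl3, Mettl4, Mettl5 and Mettl6 in turn, and the degron was taken to be on Mettl3 in all of them without a test. The untreated group is 2 libraries at 0 h, and the dTAG13 group is 2 libraries after 8 h of 125 nM dTAG13, a molecule that sends degron-tagged proteins to the proteasome. The untreated organoids carry the degron too, no library lacks it, the loss of METTL3 protein is not measured in these files, and all 4 libraries share 1 labelled batch. Nothing in the labels says that replicates came from separate cultures, so the spread between them may be technical. GLORI deaminates unmethylated A, which is then read as G, whereas m6A is still read as A, and the methylation level is the share of A among A and G reads. No listed position had fewer than 15 A and G reads, fewer than 5 A reads or a level under 10%, so a position that is not listed may be unmethylated, under a limit or thinly covered.

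The 7 retinal progenitor markers and the 3 pluripotency markers set for the tissue check had sites in all 4 libraries, as did 2 of 3 pigment epithelium markers, 1 of 3 neuron markers and 1 of 3 mesoderm and endoderm markers. Summed over listed sites in genes, untreated 1 and untreated 2 held 45909776 and 48263127 A and G reads, against 26615474 and 39868799 for dTAG13 1 and dTAG13 2. Over genes listed in all 4 libraries the median share of A converted to G was 95.8%, 96.2%, 96.9% and 96.7%, in the order untreated 1, untreated 2, dTAG13 1 and dTAG13 2, which is kept below wherever 4 values are given. The conversion share was higher in both dTAG13 libraries, and its part in the results below was not tested. Depth per gene and site did not separate the groups, with a median gene coverage of 99.2, 103.2, 82.4 and 110.9 and a median of 96, 99, 87 and 112 reads per listed site in genes. With 2 libraries a group, the exact two-sided permutation test of a single value cannot go below 0.333.

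Fewer sites were listed in RING and TRIM transcripts after dTAG13. The untreated libraries listed 2013 and 2138 sites in these transcripts, and the dTAG13 libraries 1475 and 1529. The groups did not overlap, with means of 2075.5 ± 88.4 and 1502 ± 38.2 (SD, n = 2) and a ratio of 0.724. The ratio over all genes was 0.714, so the members lost sites at about the rate of the transcriptome and made up 0.772%, 0.786%, 0.825% and 0.757% of listed sites in genes. Rnf genes went from 1322 and 1449 sites to 994 and 1036, and Trim genes from 691 and 689 to 481 and 493. In the 29 members whose coverage differed by less than 1.5-fold over the 4 libraries, the ratio was 0.668, from 737 and 815 sites to 493 and 544.

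The levels of listed sites had nearly the same distribution in every library. The median level of a member site was 26.4%, 25.7%, 26.3% and 26.5%. Sites at 10 to 20% numbered 739, 832, 560 and 568, and sites at 20 to 50% numbered 731, 740, 522 and 523. Those at 50 to 90% went from 249 and 284 to 177 and 189, and those at 90% or more from 294 and 282 to 216 and 249. In each band the dTAG13 libraries had fewer sites, with ratios of 0.718, 0.710, 0.687 and 0.807 from the lowest band to the highest. The highest band rested on few reads, with a median of 30 to 34 A and G reads a site against 178 to 248 in the lowest.

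**Figure D1:**
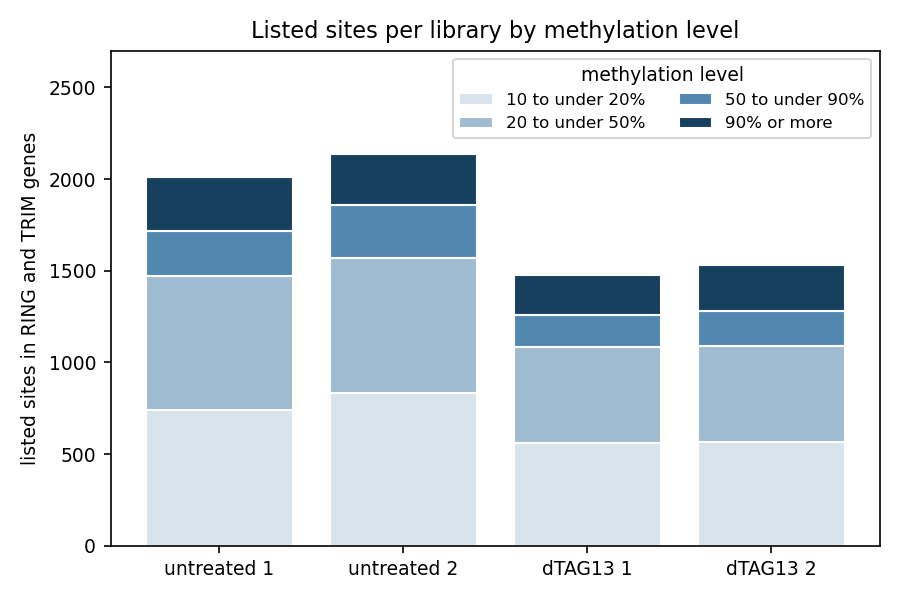
Number of listed sites in RING and TRIM genes (y axis, sites) in each library (x axis), stacked by methylation level. Bars reach 2013 and 2138 in the untreated and 1475 and 1529 in the dTAG13 libraries, and every band is smaller with dTAG13.

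Most positions were not listed again, and the untreated libraries shared more of them than any other pair. Of the 6447 member positions, 5807 (90.1%) were listed in 1 library only, 577 in 2, 58 in 3 and 5 in all 4; over all genes 91.4% were listed in 1 library. The untreated libraries shared 238 member positions, which is 11.8% of the first and 11.1% of the second. The dTAG13 libraries shared 86, which is 5.83% of the first and 5.62% of the second. Between groups the shared numbers were 104, 106, 127 and 120. In 28 members no position recurred at all, among them Rnf111, a ligase of TGF-beta signalling, and the antiviral genes Rnf213 and Trim21. These 3 had 45, 21 and 18 positions, against a median of 47 over the members. The 28 include the 8 members listed in only 1 library, whose positions could not recur. The share of such genes over all genes is not given here.

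The positions that recurred least across treatment, relative to the untreated pair, were the highly methylated ones. Among positions with at least 50 reads in untreated 1, 13.3% (95% Wilson interval 11.7 to 15.1%) were listed in untreated 2, and 6.13% (5.04 to 7.44%) and 6.52% (5.39 to 7.86%) in the dTAG13 libraries. At levels of 10 to 20% in untreated 1 the shares were 12.2%, 7.19% and 8.99%. At 90% or more, 17 of 81 positions were listed in untreated 2 (21.0%, 13.5 to 31.1%), whereas 2 of 81 (2.47%) were listed in each dTAG13 library. Starting from untreated 2, 11 of 80 such positions were listed in untreated 1 (13.8%), 3 in dTAG13 1 (3.75%) and 1 in dTAG13 2 (1.25%). The mean share listed with dTAG13 was 0.509 of the share listed in the other untreated library, and 0.248 of it for positions at 50% or more. Over all genes these ratios were 0.557 and 0.278, so members followed the transcriptome here as well. The ratios take only the untreated pair as background. Starting from dTAG13 1, 6.25% of positions were listed in dTAG13 2. From dTAG13 2, 6.48% were listed in dTAG13 1, close to the shares from untreated 1. At 50% or more, 5.22% of dTAG13 1 positions were listed in dTAG13 2, and 8.21% and 5.22% in the untreated libraries. From dTAG13 2 the shares were 1.42% in dTAG13 1 and 6.13% in each untreated library. The intervals cover counting error of positions only. They treat positions of 1 gene as independent, and each rests on 1 pair of libraries.

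**Figure D2:**
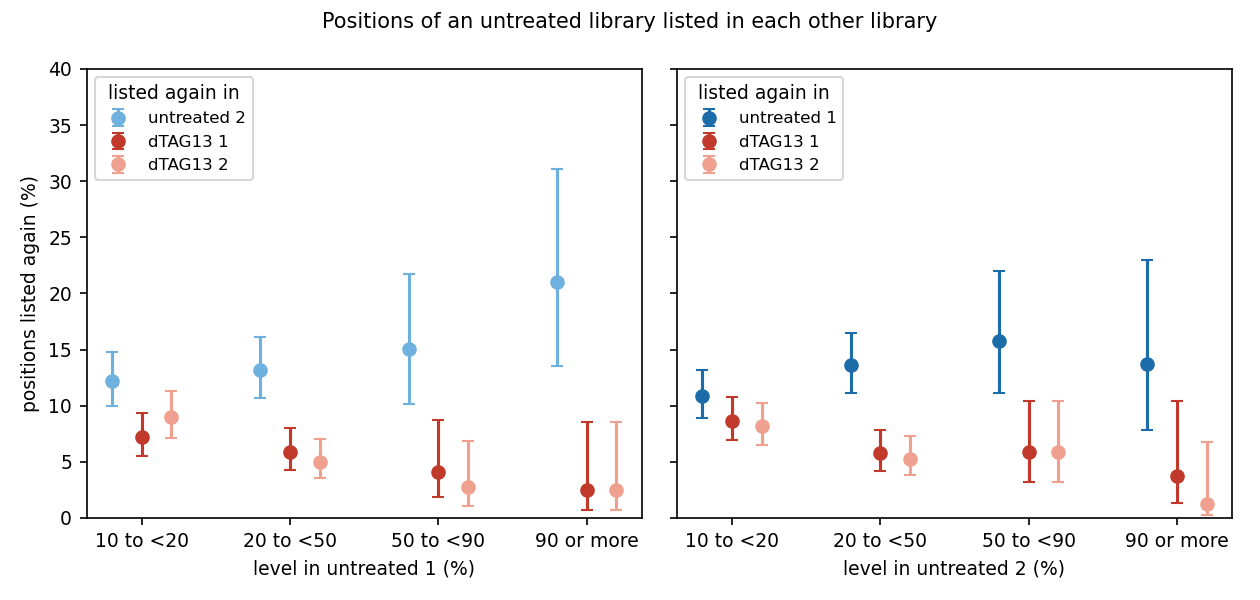
Share of member positions with at least 50 reads in an untreated library that were listed again in each other library (y axis, percent), by level in the untreated library (x axis, percent), with untreated 1 as the starting library on the left and untreated 2 on the right. Points are shares and bars 95% Wilson intervals; at 90% or more, 21.0% and 13.8% were listed in the other untreated library and 1.25% to 3.75% in the dTAG13 libraries.

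High positions were mostly not listed again in any other library, and those that were had higher levels in the other untreated library than with dTAG13. Of 227 positions at 50% or more with at least 50 reads in untreated 1, 39 were listed in untreated 2, where their median went from 83.1% to 68.2% and 26 were still at 50% or more. In dTAG13 1 and dTAG13 2, 8 and 6 were listed, at medians of 41.4% and 26.8%. Of 251 such positions in untreated 2, 38 were listed in untreated 1 at a median of 81.9%, 28 of them at 50% or more, and 13 and 11 with dTAG13 at 17.5% and 23.3%. These positions were chosen for high values in 1 library. The same choice made in the dTAG13 libraries gave 134 and 212 positions, of which 7 and 3 were listed in the other dTAG13 library, at medians of 18.2% and 29.4%.

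In all, 62 positions in 42 members had a mean level of 50% or more over both untreated libraries, and 41 of them, in 29 members, were at 50% or more in each. Only 3 of the 62 were listed in dTAG13 1 and 2 in dTAG13 2, together 5 positions (8.06%), against 14.9% of such positions over all genes. In dTAG13 2, 44 of the 62 positions lay in genes covered at least as deeply as in the untreated mean, and 2 of these 44 were listed. In dTAG13 1 it was 0 of 15. At the 5 positions that stayed listed the level dropped in each, by 41.9 to 82.3 percentage points. They were chosen for high untreated levels, which favours a lower value with dTAG13. Over all genes 886 of 1062 such positions were lower, with a median change of -41.4 points against -44.7 for the members. The reverse choice gave 13 positions at a mean of 50% or more in both dTAG13 libraries, and 0 of these were listed in an untreated library, against 20.1% over all genes. At 75 positions with an untreated mean of 10 to 20%, 27 (36.0%, against 29.3% over all genes) were listed with dTAG13, and 12 of those 27 were lower there.

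The clearest stretch was in Rnf139, which encodes a sterol-responsive ligase of the endoplasmic reticulum membrane, also known as TRC8. It was singled out after its values had been seen. Positions are given as deposited. The submitters' processing notes name mm10, but 2 contigs have names added in GRCm39. Only 8.78% of member sites fall inside their gene's GRCm38 interval. Placing against GRCm39 was not checked, so the build is not settled and exons or UTRs are not assigned. At chr15:58771140 on the plus strand the untreated libraries had levels of 80.9% (549 reads) and 81.3% (812 reads), and the position was listed in neither dTAG13 library. At 58770763 it was 83.1% of 415 reads and 89.3% of 206 reads, against 14.9% of 404 reads in dTAG13 1. At 58770287 it was 81.4% of 393 reads and 68.2% of 110 reads, against 32.0% of 366 reads in dTAG13 2. The untreated libraries lay close together at the first of these and well above the dTAG13 value at the others.

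Across chr15:58770287-58771683, a stretch of 1397 bases bounded by the first and last such position, Rnf139 had 32 and 25 listed sites when untreated and 20 and 17 after dTAG13. Sites at 50% or more numbered 11 and 9 without dTAG13 and 2 and 1 with it. Coverage of Rnf139 was 174, 186, 155 and 342, and its part in these numbers was not tested. The conversion share of Rnf139 was 93.4% and 93.6% untreated and 97.1% and 97.5% with dTAG13, a larger difference than at the median member (95.8%, 96.2%, 97.1% and 96.7%). The ranges do not overlap, and the part of conversion in the Rnf139 levels was not tested. The high dTAG13 sites included 1 at 100% of 66 reads in dTAG13 1, placed 556 bases into the stretch, 1 base from a position at 100% and 99.4% in the untreated libraries.

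Trim59, a TRIM gene with 163 listed positions, held a second such stretch, also chosen after its values were seen. At chr3:68944206 on the minus strand the level was 94.6% of 411 reads and 98.8% of 400 reads without dTAG13 and 14.4% of 568 reads in dTAG13 1. At 68945244 it was 98.6% of 283 reads and 85.1% of 430 reads, and the position was not listed with dTAG13. Across the 1039 bases between them, sites at 50% or more numbered 4 and 5 untreated and 1 and 1 with dTAG13. Over the whole gene they numbered 4 and 8 untreated and 2 and 2 with dTAG13. The total in the stretch did not move the same way, with 9 and 14 sites untreated and 7 and 25 with dTAG13. Coverage of Trim59 was close in all libraries, at 418, 413, 393 and 443.

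**Figure D3:**
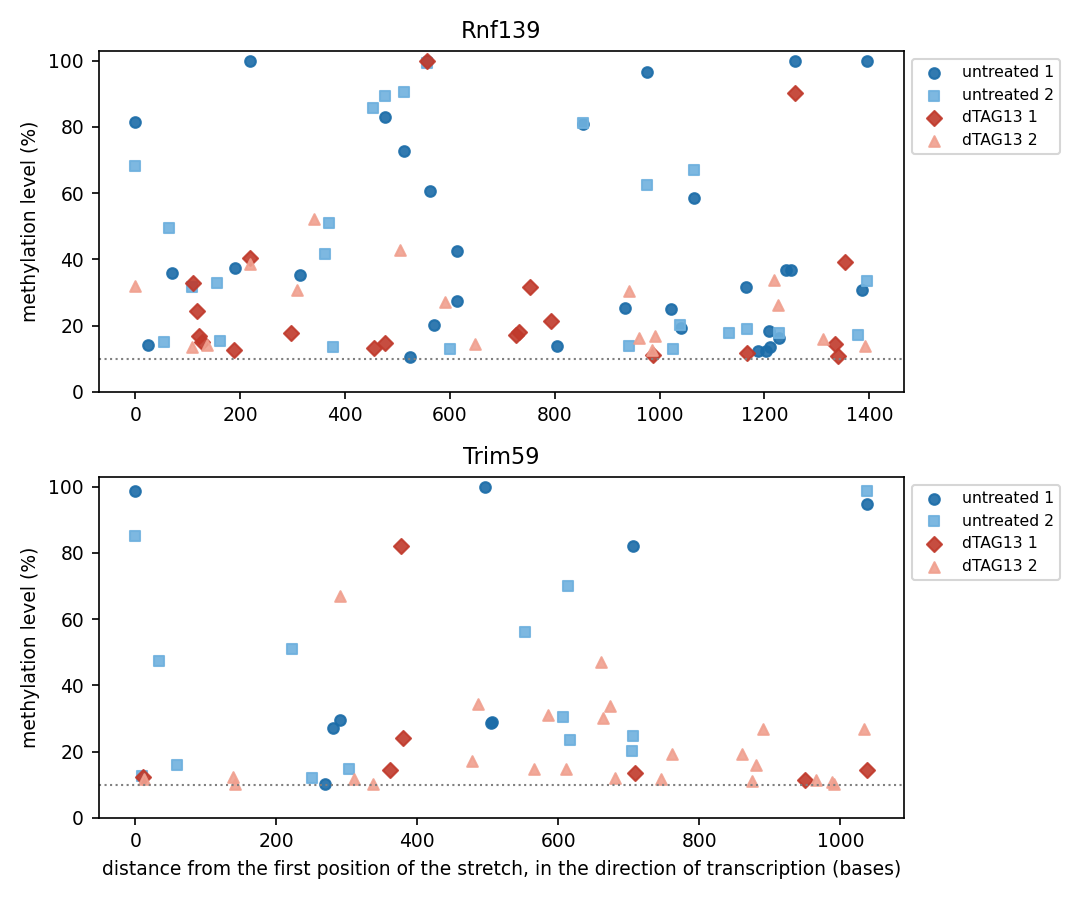
Methylation level (y axis, percent) of every listed site in a stretch of Rnf139 (top) and Trim59 (bottom) against its distance in bases from the first position of the stretch (x axis), by library; the dotted line is the 10% listing limit. In Rnf139 the untreated libraries have 11 and 9 sites at 50% or more and the dTAG13 libraries 2 and 1.

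Other members had high positions that both untreated libraries returned. In Rnf145, a further sterol-linked ligase of the endoplasmic reticulum, chr11:44452469 was at 83.1% of 325 reads and 89.8% of 384 reads. Over the whole of Rnf145, sites at 50% or more numbered 12 and 7 untreated and 2 and 7 with dTAG13, so the groups did not separate. Trim27 held chr13:21376575 at 78.7% of 376 reads and 79.7% of 711 reads, and Rnf4, a ligase for SUMO-modified proteins, held chr5:34508819 at 57.3% of 321 reads and 57.5% of 562 reads. None of these 3 positions was listed with dTAG13. Rnf103, which encodes another ligase of that membrane, had chr6:71486648 at 100% of 166 and 89 reads. Trim8 had chr19:46503935 at 98.0% and 100%, and Rnf126 had chr10:79594611 at 100% and 96.1%. Of 18 positions with an untreated mean of 90% or more, in 16 members, 1 was listed with dTAG13 (5.56%, against 19.5% over all genes), the Trim59 position above. These differences from all genes rest on few positions and were not tested.

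Agreement between the untreated libraries was not general, even at high levels. Of the 62 positions, 27 agreed within 10 points and 21 differed by more than 40. In Trim44 chr2:102132560 was at 100% of 104 reads in untreated 1 and 11.3% of 71 reads in untreated 2. In Trim11, a ligase known to act on the transcription factor Pax6, chr11:58881492 was at 30.5% of 151 reads and 92.9% of 42 reads. Of untreated 1 member sites, 11.8% were listed at the same base in untreated 2. With the same base included, 62.2% had an untreated 2 site of the same gene within 50 bases. Over all genes these shares were 9.62% and 57.5%.

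Only 5 member positions were listed in all 4 libraries, each with at least 20 reads, and could be tested for a change of level. With a quasi-binomial model whose dispersion was moderated over 2321 positions, 0 of the 5 passed an adjusted p of 0.05, and 0 had an unadjusted p under 0.05. Over all positions tested, 2.2% were called lower, 0.0862% higher and 9.35% had an unadjusted p under 0.05. Their untreated means ran from 14.4% to 41.1%, and none of the 62 high positions was among them, because those were not listed in all libraries.

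Trim28, a corepressor that silences retroelements with KRAB zinc finger proteins, had the deepest of them. At chr7:12763372 on the plus strand its level was 12.8%, 16.1%, 11.6% and 13.4% of 4057, 4404, 2273 and 3058 reads. The groups overlapped, and the difference of -1.91 points had an adjusted p of 0.849 in the quasi-binomial fit. In Rnf139 chr15:58761300, outside the stretch above, stood at 28.2%, 54.1%, 15.5% and 26.1%. There the groups were separated by a small gap, with a difference of -20.4 points and an adjusted p of 0.734 in that fit.

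Rnf10, a ligase that marks ribosomal proteins, held 2 of the tested positions. At chr5:115398315 on the minus strand the levels were 28.2%, 24.4%, 23.5% and 20.0%, and at 115410656 they were 19.8%, 12.2%, 16.5% and 15.04%. The adjusted p-values of the quasi-binomial fit were 0.889 and 0.997. The remaining position, in Rnf187, was at 23.9%, 12.6%, 15.7% and 11.0% (chr11:58824085, adjusted p = 0.849 in that fit). Summed per gene, 4 members were tested among 1016 genes and 0 were called, nor had any an unadjusted p under 0.05, against 4.53% of genes called lower.

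The number of listed sites followed the coverage of a gene, the value that the tables give for each gene and library. Across the 83 members listed in all libraries, Spearman's rho between sites and coverage was 0.657, 0.603, 0.651 and 0.713, as a description across genes. Sites were therefore counted per 100 units of coverage, a density that is not divided by transcript length. Its median over these members was 15.7 and 14.5 untreated and 13.3 and 11.8 with dTAG13, against 13.6, 14.1, 10.8 and 9.41 over all genes. The dTAG13 libraries were lower in both, with ratios of 0.830 and 0.729. Members kept their order between the untreated libraries, with a rho of 0.804 for the density, 0.679 between the dTAG13 libraries and 0.556 to 0.693 across groups.

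The densest member was Trim33, a transcriptional cofactor of the TGF-beta pathway, with 69.8 and 56.6 sites per 100 units untreated and 44.0 and 38.2 with dTAG13. Rnf214 had 67.1, 60.4, 40.4 and 28.1. Trim37, a ligase of centriole and chromatin control that had the most positions of any member (227), had 63.8, 44.0, 34.1 and 40.4. In all 3 genes both dTAG13 densities lay below both untreated ones, as in 37.7% of all genes. Rnf169, a regulator of the DNA double-strand break response, and Trim44, a TRIM protein without a RING, came next, and in neither did the groups separate.

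At the other end stood Rnf7, the small catalytic RING subunit of some cullin ligases, with 2.37, 2.88, 3.46 and 2.97 sites per 100 units at a coverage of 260 to 381. Trim17, Trim65, Rnf8 and Rnf128 were also sparse, with mean densities of 3.48 to 3.94. Rnf8 starts the ubiquitin signal at DNA breaks, and Rnf128 encodes the ligase GRAIL of T cells. The mean over the 4 libraries thus ran from 2.92 in Rnf7 to 52.2 in Trim33, with a median of 14.4. By number of positions, Rnf145 had 197, Rnf44 had 170, and Rnf4 and Rnf10 had 167 each, against a median of 47 over the members.

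Among the 75 members tested for density, Rnf157, which encodes a ligase described in neuronal survival, had the largest fall, nearly equal to that of Trim11 described below. Its sites numbered 18, 24, 4 and 5, while its coverage was 51.0, 72.0, 71.5 and 77.4. The groups did not overlap in sites, and coverage was not lower with dTAG13. The density went from 35.3 and 33.4 to 5.59 and 6.46, a log2 change of -2.29 ± 0.46 (SE) with an adjusted p of 0.0456 in the limma fit over 10165 genes. Sites at 50% or more went from 15 and 11 to 1 and 2, and the conversion share was 91.7%, 94.6%, 95.2% and 94.0%.

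Of the 75 members tested, 1 passed, Rnf157, and 0 members were called higher; over all genes 0.551% were called lower and 0.00984% higher. An unadjusted p under 0.05 was found for 13 of the 75 (17.3%) against 18.7% of all genes. The call was close to the limit, since it was lost with a pseudocount of 0.5 in place of 1 (adjusted p = 0.0526 in limma). With 0.5, 0 of 10165 genes were called. The values of Rnf157, 0.0456 and 0.0526, were the lowest adjusted p-values over all genes in these 2 limma fits. Without untreated replicate 1 and without untreated replicate 2 its log2 change was -2.24 and -2.34. Without dTAG13 replicate 1 and without dTAG13 replicate 2, 8 members were called lower in each case, where 8.41% and 5.56% of all genes were, and both sets of 8 held Rnf157 and Trim11.

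Other large differences in density went the same way without passing. Trim11 had 12 and 12 sites untreated and 2 and 6 with dTAG13, although its coverage was 82.6, 77.0, 114 and 163 (log2 change -2.28, adjusted p = 0.0566 in limma). Trim25, which tags the RNA sensor RIG-I, had 24, 18, 6 and 10 sites, and Rnf13, a ligase of endosomal membranes, had 24, 22, 11 and 13. Trim45 had 11, 12, 7 and 4. Coverage was higher in both dTAG13 libraries in Rnf13 (76.1, 82.1, 123 and 111) and Trim45 (75.4, 60.8, 83.1 and 120). In Trim25 it overlapped (97.7, 50.8, 65.0 and 92.7). Not divided by coverage, the log2 changes in sites were -1.50, -1.31, -0.89 and -0.98 in Trim11, Trim25, Rnf13 and Trim45. In all 4 genes the dTAG13 libraries had fewer sites than the untreated ones and the adjusted p-values of the last 3 were 0.0965, 0.0965 and 0.137 in the limma fit.

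The largest differences in the other direction came from genes whose coverage was lower with dTAG13, with 2 exceptions. Trim28 had 29, 45, 47 and 36 sites at a coverage of 1399, 1472, 647 and 940, a log2 change in density of 1.06 (adjusted p = 0.356 in limma). Rnf5, a small ligase of the endoplasmic reticulum, and Rnf187 had changes of 0.85 and 0.76, and their coverage too was lower in both dTAG13 libraries. Rnf25 had 9, 6, 24 and 11 sites, so that its groups separated in sites but overlapped in density, and its coverage overlapped. Rnf122 had 10, 10, 13 and 16 sites, with overlapping coverage as well.

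**Figure D4:**
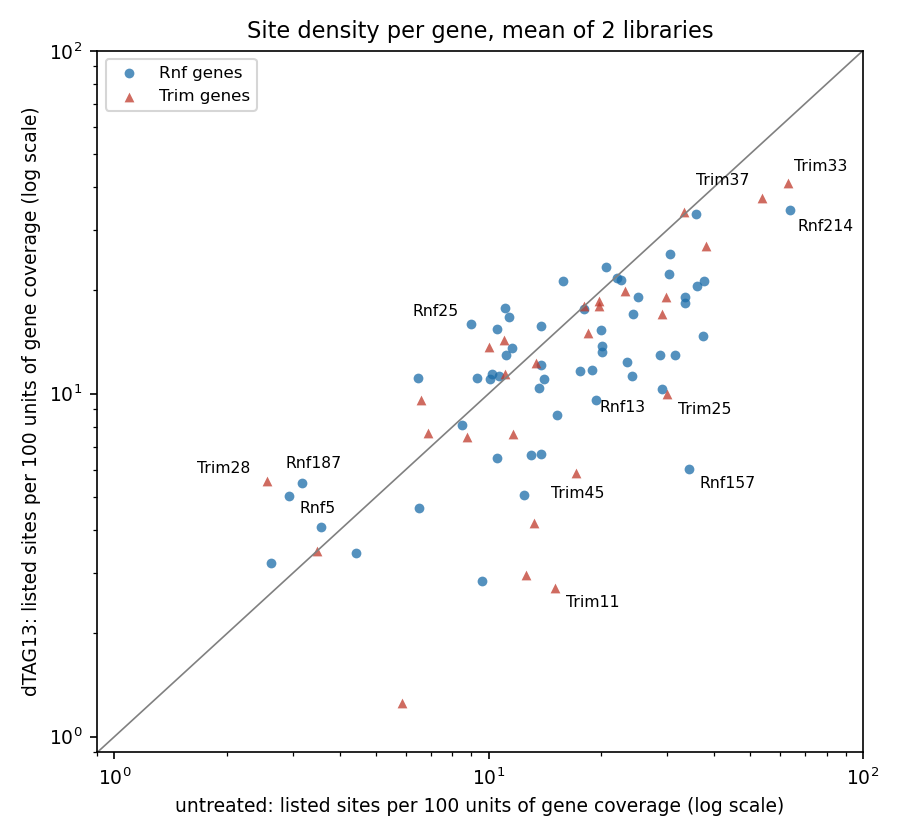
Listed sites per 100 units of gene coverage for the members listed in all 4 libraries, mean of the 2 untreated libraries (x axis, log scale) against mean of the 2 dTAG13 libraries (y axis, log scale); circles are Rnf and triangles Trim genes, and the line marks equal values. Rnf157 falls from 35.3 and 33.4 to 5.59 and 6.46, and Trim28 and Rnf5 lie above the line.

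Listed sites were fewer in both dTAG13 libraries than in both untreated ones in 44 of 83 members and more in 3, against 44.6% and 4.53% of all genes. Both dTAG13 densities lay below both untreated ones in 29 of 83 members (34.9%) and above them in 8 (9.64%). Over all genes these shares were 37.7% and 10.5%, so the members' counts are near the background. In the limma fit 52 of the 75 tested were below 0, with a median log2 change of -0.32 against -0.35 over all genes. For Rnf genes the median was -0.32 over 52 tested, and for Trim genes -0.26 over 23.

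By role, chromatin and transcription genes went from 238 and 250 sites to 162 and 199. Of the 6 tested, Rnf20 and Rnf40, which together ubiquitinate histone H2B, and Trim24 and Trim33 were lower in density in both dTAG13 libraries. Trim28 and Rnf2, the catalytic subunit of Polycomb complex PRC1, were higher. Over all genes 37.7% were lower and 10.5% higher in this way, and the difference of this group from them was not tested. Rnf20 had 34, 37, 17 and 18 sites at a coverage of 161, 144, 137 and 146, and Rnf2 had 43, 39, 30 and 54. No member of this group or of any other role group passed the test (0 of 6, 5, 4, 9, 3, 5 and 3 tested).

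Membrane and endoplasmic reticulum ligases had 211 and 227 sites untreated and 146 in each dTAG13 library. Of these 10 genes, Rnf13, Rnf128, Rnf130 and Rnf149 were lower in density in both dTAG13 libraries and Rnf5 was higher. Over all genes 37.7% were lower and 10.5% higher. Rnf130 had 32, 43, 19 and 17 sites at a coverage of 120, 140, 119 and 171. Its densities were 26.7 and 30.6 untreated and 16.0 and 9.97 with dTAG13.

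Antiviral and innate immune members had few sites, 64, 59, 42 and 35 in total, most of them in Trim25 and Trim26, and Trim5 was not listed. Cytoskeletal, neuronal and muscle TRIM genes had 173, 158, 101 and 114 sites, of which Trim37 and Trim32 held most. The muscle genes Trim63 and Trim54 were listed in 1 library each. Trim55 and Trim67, also of this mixed group, were listed in none. Trim9, a neuronal TRIM, had 10, 4, 1 and 0 sites.

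Among DNA damage members the densities of the groups separated in 0 of 5, where 37.7% of all genes were lower and 10.5% higher. They had 146, 181, 135 and 127 sites, and in Rnf168, which extends ubiquitin chains at breaks, untreated 2 alone was high with 18, 52, 19 and 18. RBR ligases had 77, 109, 56 and 72, and signalling ligases 63, 85, 49 and 72. Among the latter Rnf146, which targets Axin in Wnt signalling, had 13, 19, 18 and 19 sites. The difference between role groups was not tested.

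The other genes of the pathway were 16 ubiquitin partners, with the activating enzymes, ubiquitin itself, conjugating enzymes and partners such as Ring1 and Bmi1. They had 500 and 481 sites untreated and 408 and 444 with dTAG13, a ratio of 0.869, and 0 of 15 tested passed. Both dTAG13 densities were below both untreated ones in 1 of 16 and above in 4, against 37.7% and 10.5% of all genes. Their coverage was lower in both dTAG13 libraries in 10 of 16, against 28.1% of all genes, and its part in the density was not tested.

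Coverage stands in for RNA abundance here, and in bulk organoids fewer cells of a type and less RNA per cell cannot be told apart. On a log2 scale centred on the median gene of each library, 0 of 83 members changed in the limma fit, where 0 of 12520 genes were called (0.0%). An unadjusted p under 0.05 was found for 14 members (16.9%) against 16.3% of all genes. The median log2 change was -0.02 for members and -0.07 for all genes. Uncentred, coverage was lower in both dTAG13 libraries in 24 of 83 members (28.9%, against 28.1% of all genes) and higher in 9 (10.1% of all genes).

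The most deeply covered members had some of the largest differences in coverage. Trim28 went from 1399 and 1472 to 647 and 940, a centred log2 change of -0.80, and Rnf10 from 478 and 497 to 227 and 302, a change of -0.82. Both had an adjusted p of 0.106 in limma. Without dTAG13 replicate 1, Rnf10, Rnf5 and Trim28 passed, and without dTAG13 replicate 2, Rnf10 and Trim28 did, where 2.67% and 2.37% of all genes were called lower. Rnf146 had a change in the other direction, from 105 and 83.9 to 132 and 197.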

How the data were processed

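GLORI libraries of polyA RNA were compared, 2 untreated and 2 with dTAG13. The authors deposited 1 table of called sites per library, not pooled, with counts of A and G reads and of A reads that are not normalised. The deposited fraction equals A over A and G reads within 0.0001 in 100% of sites, and the deposited conversion share is also a fraction. Gene coverage is a deposited signal, 1 value per gene and library. Its formula is not given in the sources used here, so whether it is scaled to depth is not known. The deposited p-values reach at most 0.00401 after the authors' adjustment. The submitters' processing notes name mm10; 8.78% of member sites fall inside their gene's GRCm38 interval. Aligner and caller are not given in the sources used here.

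Levels were tested where all 4 libraries listed the position and each had 20 reads or more, with a quasi-binomial model and moderated dispersion (limma 3.58.1, R 4.3.3). Listed sites per gene coverage, as log2 of sites + 1 over coverage in genes with a mean of at least 5 sites, and log2 coverage, centred on the median gene and without a pseudocount, were tested with limma over all genes. All p-values were adjusted by Benjamini-Hochberg, with 0.05 as the threshold. Scripts were tested on simulated data. Alternatives included edgeR 4.0.16 on the numbers of listed sites.

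Members, gene lists and role groups were chosen with earlier results of these data known. Genes were named by rule: those with tested sites, the 8 with most positions, the 5 at each end of density and of change, the 5 with most positions shared by untreated libraries, those at 90% or more in both, and the role groups. Trim27 was named outside these rules. Same-numbered libraries did not deviate together (r = 0.019, 0.017 and 0.002). Sequence context was not used here. Not every gene of the series is reported here.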

Additional observations from a re-analysis of the deposited data

How the results depend on the processing

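For the main comparisons, 38 alternatives kept the result and 15 moved it. The ratio of listed member sites was 0.668 in members with coverage within 1.5-fold. Members called in sites per coverage (1) were 0 with all genes listed in all 4 libraries, with centring on the median change, without division by coverage and with a pseudocount of 0.5, 2 by edgeR, and 0 to 8 when 1 library was left out. Rnf157 had adjusted p-values of 0.0933, 0.238, 0.129 and 0.0526 in limma under the first 4 of these, where 0 genes were called over all genes. Over all genes edgeR called 1.32% lower and 0.295% higher. Members called in coverage (0) were 0 to 3 when 1 library was left out. Fisher's exact test on reads summed over libraries has no term for their spread. It called 3 of the 5 positions lower (Rnf139, Rnf187 and Trim28), where the site test called 0. Over all positions Fisher's test called 12.8% lower and 10.1% higher. The recovery ratio was 0.248 for positions at 50% or more; without either untreated library it has no value, because nothing is left to set the background. At Rnf10 chr5:115410656 the difference was 0.0191 on the log2 odds scale, and -0.21 points ranged from -4.02 to 3.59 when 1 library was left out. At Rnf187 chr11:58824085 it ranged from -10.6 to 0.785 points when 1 library was left out. Over all positions and all genes, leaving out 1 library left 0 calls in the level tests. The cause of these moves was not tested.

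With the replicate block, 0 positions, 0 genes in level and 0 genes in coverage among members were called, and 4 in sites per coverage (Rnf157, Trim11, Trim25 and Rnf13). The libraries share only a number, and the correlation check is given with the processing. Over all genes the block moved calls in sites per coverage from 56 lower and 1 higher to 470 and 16, calls in coverage from 0 to 6 lower and 2 higher, site calls from 51 lower and 2 higher to 0, and gene calls in level from 46 lower to 0.

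Only 5 of 6447 member positions were listed in all 4 libraries and entered the level test, also with 50 reads in each library or with no minimum. A position not listed has no measured level, so a fall below the listing limit cannot be told from a lack of reads.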
